A study of Mus musculus with 2 samples.

Results

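Seven-pass receptors that signal through G proteins are among the surface proteins by which astroglia read neurotransmitters and peptides. The genes described here are the 7 receptors Gpr37l1, Ntsr2, Ednrb, Grm3, Adra2a, Oxtr and Prokr2, of 16301 genes found in at least 3 cells. They were chosen by name as astroglial receptors with earlier results of these libraries in view, the contrast of brain and tail included. Every level below is therefore a description and none is a test. In the brain library the label holds for 5 of the 7, by the share of their molecules in cells with astroglial markers. Prokr2 lay mainly in brain cells with neuroblast markers and Oxtr almost wholly in tail cells marked by Igfbp5, as the values below show.

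The study asked how Sox1-GFP+ cells of the tail compare with those of the brain. Both libraries came from Sox1-GFP knock-in reporter mice bred with wild-type animals, in which GFP is made where the neuroepithelial gene Sox1 is active. GFP+ cells of minced, trypsin-treated tissue were sorted and captured with the BD Rhapsody system, which counts each captured mRNA molecule once. The tail library came from pups within days of birth and the brain library from young adults. The paper names both sexes for its derived cell lines and gives no sex for the animals of these 2 libraries. The number of animals is not given in the sources used here. There was 1 library per tissue, so tissue, age, dissection and library cannot be told apart, no test between them is possible, and no value has a replicate error. All intervals are exact 95% intervals for counting error only, and cells of 1 library are not replicates.

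The tail library kept 1964 cells with 2817103 molecules and a median of 1282.5 molecules per cell. The brain library kept 7988 cells with 6424466 molecules and a median of 696. Of the barcodes kept, 18 cell indices occurred in both libraries. At least 3 of 10 astroglial marker genes (Slc1a3, Slc1a2, Aqp4, Gja1, Aldoc, Aldh1l1, Clu, Mfge8, Sox9 and Atp1b2) had a molecule in 6019 brain cells (75.4%) and in 248 tail cells (12.6%). Those genes summed to 39033 CPM over brain cells and 1256 CPM over tail cells, where CPM is molecules scaled to a total of 1000000 over the cells in question. The brain library thus carried a far larger share of astroglial cells by these markers than the tail library, and a level over a whole library mixes this share with the level per cell.

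Each receptor passes a signal from its ligand to a heterotrimeric G protein. Gpr37l1 encodes a receptor of glia for which peptides derived from prosaposin have been proposed as ligands. Ntsr2 encodes a low-affinity neurotensin receptor. Ednrb encodes the endothelin receptor type B, known in astrocytes and also in neural crest derivatives such as melanocytes and enteric neurons. Grm3 encodes a metabotropic glutamate receptor and Adra2a an α2-adrenergic receptor for noradrenaline, both coupled to inhibitory G proteins. Oxtr encodes the oxytocin receptor. Prokr2 encodes a prokineticin receptor known for the migration of newborn neurons to the olfactory bulb.

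On GRCm38, the build of the files, the GENCODE vM21 annotation places all 7 as protein-coding genes on 7 chromosomes. Gpr37l1 (ENSMUSG00000026424) lies on chromosome 1 from 135160234 to 135167681 on the minus strand. Ntsr2 (ENSMUSG00000020591) lies on chromosome 12 from 16653382 to 16660227 on the plus strand. Ednrb (ENSMUSG00000022122) lies on chromosome 14 from 103814625 to 103844402 on the minus strand. Grm3 (ENSMUSG00000003974) lies on chromosome 5 from 9485541 to 9725170 on the minus strand. Adra2a (ENSMUSG00000033717) lies on chromosome 19 from 54044151 to 54048982 on the plus strand. Oxtr (ENSMUSG00000049112) lies on chromosome 6 from 112473683 to 112489943 on the minus strand. Prokr2 (ENSMUSG00000050558) lies on chromosome 2 from 132337733 to 132385447 on the minus strand. The only annotated overlap was that of Grm3 with Gm42455, a gene on the same strand whose own count was 0 molecules in both libraries.

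Promoter windows of 300 bases, from 250 before the annotated start to 50 after it, were found for all 7 genes in the RefSeq table of GRCm38.p6. The windows of 4 genes are shown, since these genes set apart the patterns described below: Gpr37l1 and Ntsr2 were abundant in brain astroglia and nearly missing from the tail, Adra2a differed most among the astroglial groups, and Oxtr belonged to the tail. Each runs 5′ to 3′ on the gene's own strand, and capitals mark a TATAAA match. They lie at chr1:135167632-135167931 (minus strand), chr12:16653220-16653519 (plus strand), chr19:54045009-54045308 (plus strand) and chr6:112489776-112490075 (minus strand), in the order shown.
Gpr37l1: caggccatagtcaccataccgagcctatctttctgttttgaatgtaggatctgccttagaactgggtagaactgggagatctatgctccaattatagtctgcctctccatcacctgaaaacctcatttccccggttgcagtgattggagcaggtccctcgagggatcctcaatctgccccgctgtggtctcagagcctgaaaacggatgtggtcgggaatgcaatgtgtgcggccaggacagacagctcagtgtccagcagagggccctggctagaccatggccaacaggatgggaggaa
Ntsr2: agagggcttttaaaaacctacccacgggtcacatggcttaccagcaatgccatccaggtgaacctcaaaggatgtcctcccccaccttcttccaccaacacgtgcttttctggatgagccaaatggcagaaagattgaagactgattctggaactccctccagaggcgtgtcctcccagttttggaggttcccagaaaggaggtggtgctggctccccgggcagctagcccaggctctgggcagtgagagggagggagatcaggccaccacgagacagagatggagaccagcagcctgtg
Adra2a: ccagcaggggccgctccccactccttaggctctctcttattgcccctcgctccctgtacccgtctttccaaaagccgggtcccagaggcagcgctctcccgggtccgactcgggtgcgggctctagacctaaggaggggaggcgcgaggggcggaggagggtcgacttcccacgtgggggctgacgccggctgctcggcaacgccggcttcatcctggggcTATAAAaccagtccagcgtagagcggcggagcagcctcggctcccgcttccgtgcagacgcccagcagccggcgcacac
Oxtr: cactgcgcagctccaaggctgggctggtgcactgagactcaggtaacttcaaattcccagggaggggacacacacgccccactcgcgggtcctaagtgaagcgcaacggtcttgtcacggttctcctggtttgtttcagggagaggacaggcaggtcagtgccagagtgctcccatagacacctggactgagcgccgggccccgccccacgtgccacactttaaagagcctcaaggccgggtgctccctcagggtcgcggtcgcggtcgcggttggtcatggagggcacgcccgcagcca
The 7 windows were searched on both strands for TTGGCA (part of a nuclear factor I site), ACAATG (a SOX site) and TATAAA (a core promoter element), each word on its own. Only Adra2a held a match, 1 TATAAA that begins 29 bases before the start. TTGGCA occurs in 14.1% of the 32851 promoter windows of that table, ACAATG in 12.6% and TATAAA in 13.6%, so that the other windows lack these letters says nothing about the factors. Counts of CG differed among the 4 windows shown, with 7 in Gpr37l1, 5 in Ntsr2, 28 in Adra2a and 20 in Oxtr.

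Of the receptors, 5 made up nearly all receptor molecules of the brain library. In the tail library 1 of these 5, Ednrb, together with Oxtr made up nearly all. Gpr37l1 had 25373 molecules in the brain library (3949 CPM, 3901 to 3998) and 2 in the tail library (0.710 CPM, 0.0860 to 2.56). In the brain it ranked 10 by molecules among the genes not encoded by mitochondria, and Ntsr2 and Ednrb ranked 40 and 41. Ntsr2 had 11174 brain molecules (1739 CPM) and 6 tail molecules (2.13 CPM). Both were thus among the most counted genes of the brain cells and close to the limit of detection in the tail, where 3 molecules in the library correspond to 1.06 CPM.

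Ednrb differed from those receptors in that it was well detected in both libraries. It had 10709 molecules in the brain (1667 CPM, 1635 to 1699) and 757 in the tail (269 CPM, 250 to 289), a brain over tail ratio of 6.20 (5.76 to 6.69). Grm3 had 1308 brain molecules (204 CPM) and 5 tail molecules, a ratio of 115 (49.0 to 354). Adra2a had 1108 brain molecules (172 CPM) and 33 tail molecules (11.7 CPM), a ratio of 14.7 (10.4 to 21.5). Prokr2 was sparse throughout, with 111 brain molecules (17.3 CPM) and 4 tail molecules, a ratio of 12.2 (4.62 to 45.4).

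Oxtr ran the opposite way. The oxytocin receptor gene had 360 molecules in the tail library (128 CPM, 115 to 142) and 7 in the brain library (1.09 CPM, 0.438 to 2.24), a tail over brain ratio of 117 (56.3 to 294). In the tail, Ednrb supplied 64.9% and Oxtr 30.8% of the 1167 receptor molecules. In the brain, Gpr37l1 supplied 51.0% of the 49790, Ntsr2 22.4% and Ednrb 21.5%. Summed over the 7 genes, the brain level was 7750 CPM and the tail level 414 CPM, a ratio of 18.7 (17.7 to 19.8). Without Gpr37l1 the ratio was 9.19 (8.67 to 9.76).

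**Figure D1:**
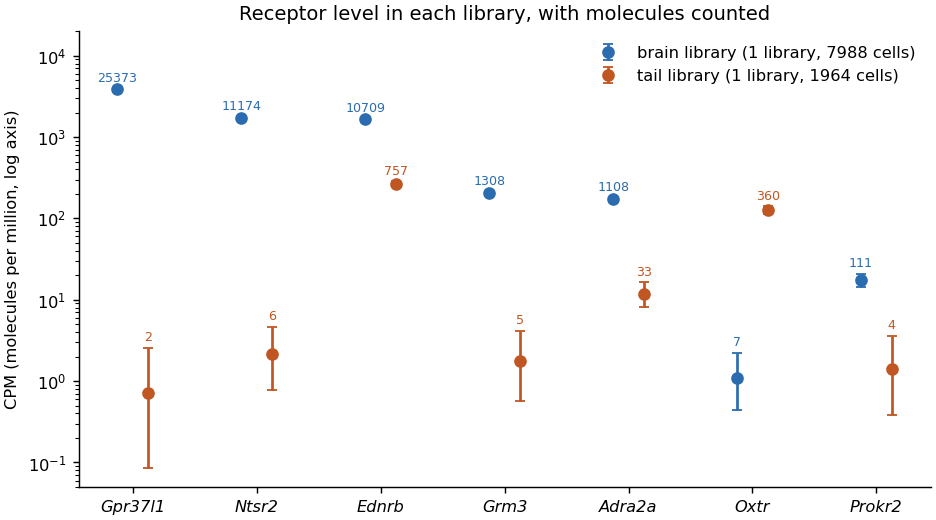
Level of each receptor in the brain and the tail library in CPM on a log axis. Points are the summed level of 1 library each, bars the exact Poisson 95% interval, and the numbers the molecules counted. Gpr37l1 spans from 25373 brain molecules to 2 tail molecules, Ednrb is the only receptor above 200 CPM in both libraries, and Oxtr alone is higher in the tail.

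A gene was counted as apart between the libraries when it had at least 50 molecules over both and the whole interval of its ratio lay beyond 4-fold. Higher in the brain were 6 of the 7 receptors, beside 4.66% of the 11347 genes that met the minimum, and lower in the brain was 1, Oxtr, beside 6.35%. The receptors were selected from this very contrast, and nothing is read from that difference. The count of 6 was the same under each alternative tried but a minimum of 200 molecules, which left out Prokr2 and gave 5.

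Within the brain, cells were grouped by 1 marker gene each, with at least 2 molecules of that marker and fewer than 2 of each other marker. Agt encodes angiotensinogen, made by many astrocytes outside the cortex. Chst2 encodes a sulfotransferase, Gdf10 is a marker of Bergmann glia of the cerebellum, and Dlx1 encodes a homeobox factor of forebrain neuroblasts and interneurons. There were 1135 Agt-marked, 338 Chst2-marked, 261 Gdf10-marked and 925 Dlx1-marked cells, while 5277 cells had no marker at 2 molecules and 52 had several. At least 3 astroglial markers were found in 99.8% of the Agt-marked, 99.7% of the Chst2-marked, 100% of the Gdf10-marked and 7.03% of the Dlx1-marked cells. The first 3 groups were therefore astroglial by independent markers. Their median depth was 728, 1052.5 and 1138 molecules, and mitochondrial molecules made up a median of 16.7%, 14.7% and 6.37% of a cell, so depth and mitochondrial share moved with the groups and their part in the differences was not tested.

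The receptor repertoire differed among the 3 astroglial groups. Gpr37l1 was the most counted receptor in each, with 5343 CPM (5194 to 5496) in Agt-marked, 4635 CPM (4424 to 4853) in Chst2-marked and 8865 CPM (8542 to 9197) in Gdf10-marked cells. Its ratio of Gdf10-marked to Agt-marked cells was 1.66 (1.58 to 1.74) and stayed between 1.30 and 1.83 over all alternatives. The glutamate receptor gene Grm3 set the Chst2-marked cells apart, with 637 CPM (561 to 722) against 160 CPM (135 to 188) in Agt-marked cells, a ratio of 3.99 (3.24 to 4.94). With 3 molecules of the marker as the limit the ratio was 6.05, and with 1 molecule 3.04. In the Gdf10-marked cells Grm3 had 225 CPM (176 to 283). The 4.23% of brain cells that were Chst2-marked held 19.0% of all Grm3 molecules.

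Ntsr2 and Adra2a were lowest in the Gdf10-marked group. Ntsr2 had 2908 CPM (2798 to 3021) in Agt-marked, 1845 CPM (1713 to 1985) in Chst2-marked and 658 CPM (573 to 753) in Gdf10-marked cells, and none of these intervals overlap. The ratio of Gdf10-marked to Agt-marked cells was 0.226 (0.196 to 0.261). Adra2a, the noradrenaline receptor gene, had 316 CPM (280 to 355) in Agt-marked cells, 118 CPM (86.2 to 157) in Chst2-marked cells and 12.5 CPM (3.40 to 32.0) in Gdf10-marked cells. The last value rests on 4 molecules in 261 cells, beside 285 molecules in the Agt-marked cells, and its ratio was 0.0395 (0.0107 to 0.102). The Gdf10-marked cells thus combined the highest Gpr37l1 level with the lowest Ntsr2 and Adra2a levels of the astroglial groups.

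Ednrb was close in Agt-marked (2901 CPM, 2791 to 3014) and Gdf10-marked cells (3255 CPM, 3060 to 3458). The direction of that difference is not settled, since the ratio of 1.12 fell to 0.882 with TMM scaling and to 0.946 with median-ratio scaling. Ednrb was lower in Chst2-marked cells, at 1305 CPM (1194 to 1424) and a ratio of 0.450 (0.408 to 0.495) to Agt-marked cells. Oxtr had 2, 0 and 2 molecules in the 3 astroglial groups, and Prokr2 had 0, 0 and 2. A count of 0 allows up to 3.32 CPM in the Agt-marked and 7.68 CPM in the Chst2-marked cells.

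**Figure D2:**
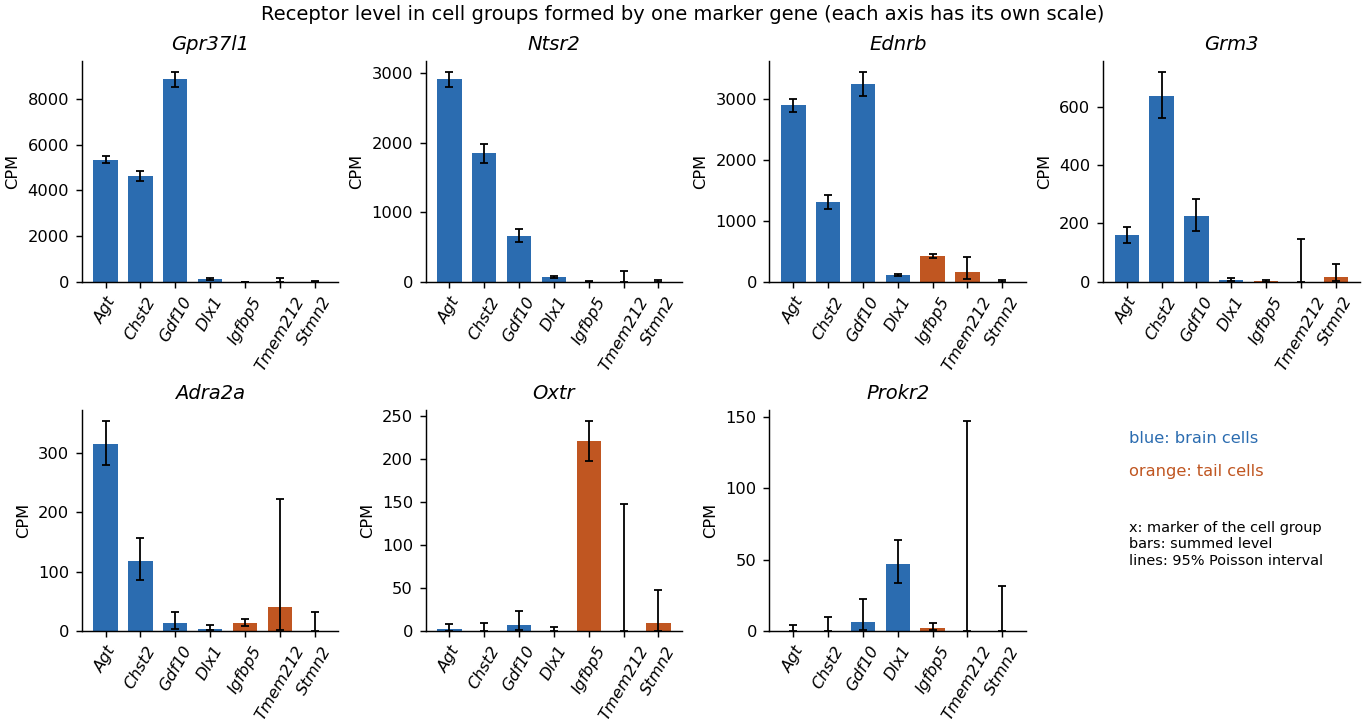
Receptor level in CPM in 4 brain groups (blue) and 3 tail groups (orange), each formed by the marker on the x axis, with 95% Poisson intervals of the summed molecules and a separate linear scale per gene. Grm3 peaks in Chst2-marked cells (637 CPM), Ntsr2 and Adra2a fall from Agt-marked to Gdf10-marked cells, Oxtr stands only in the tail Igfbp5-marked cells (221 CPM) and Prokr2 in the Dlx1-marked cells (46.9 CPM). The wide bars of the tail Tmem212-marked group reflect its 11 cells.

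Between brain groups, a gene was counted as apart at 50 molecules over both groups and a whole interval beyond 2-fold. Of the 5 receptors with enough molecules, Grm3 was higher and Ednrb lower in Chst2-marked than in Agt-marked cells, each beside 1.74% of 3680 genes. Adra2a missed that count narrowly there, with a ratio of 0.373 (0.267 to 0.510), and passed it with TMM scaling, at 0.348 (0.249 to 0.476). In Gdf10-marked cells 0 of the 5 were higher beyond 2-fold, beside 7.11% of 3683 genes, and Ntsr2 and Adra2a were lower, beside 4.86%. In Dlx1-marked cells 0 were higher, beside 27.5% of 5696 genes, and all 5 were lower, beside 17.3%. The median log2 ratio over all genes tested was 0.07 for Chst2-marked, 0.25 for Gdf10-marked and 0.75 for Dlx1-marked cells against Agt-marked cells, so the decreases are larger and the increases smaller when read relative to it. Grm3 in Chst2-marked cells, at 2.0 on the same scale, was far above its median. Read from the library's total, the summed receptor level was 11630 CPM in Agt-marked, 8540 CPM in Chst2-marked and 13028 CPM in Gdf10-marked cells. The Gdf10-marked to Agt-marked ratio of that sum, 1.12 (1.08 to 1.16), fell below 1 under other scalings.

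The Dlx1-marked cells had low levels of the astroglial receptors and the highest Prokr2 level of the 4 brain groups formed by 1 marker. Gpr37l1 had 117 CPM (95.5 to 143) in these cells, Ntsr2 68.1 CPM and Ednrb 107 CPM, ratios of 0.0220, 0.0234 and 0.0368 to the Agt-marked cells. Neuroblast-marked cells are a place where astroglial receptors should be low. The 100 Gpr37l1 molecules lay in 41 of the 925 Dlx1-marked cells, with up to 8 in 1 cell. At least 3 astroglial markers were found in 65 of the 925 cells, so these levels are not a measure of background alone. Per 100 molecules of Gpr37l1, the whole brain library held 44.0 of Ntsr2 and 42.2 of Ednrb, and the Dlx1-marked cells held 58 of Ntsr2 and 91 of Ednrb. Ednrb was therefore over-represented there relative to the library as a whole. The origin of these molecules was not tested. Without the cells called doublets, the summed receptor level in Dlx1-marked relative to Agt-marked cells went from 0.0300 to 0.0214.

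Prokr2 had 40 molecules in 37 of the 925 Dlx1-marked cells (46.9 CPM, 33.5 to 63.9) and none in the Agt-marked cells. By the interval of the ratio that is at least 10.96-fold more in the Dlx1-marked cells. Brain cells with at least 2 molecules of Stmn2, which encodes a stathmin of young neurons, overlap with that group and held 27 Prokr2 molecules (58.9 CPM, 38.8 to 85.8). At least 3 of 8 neuroblast markers (Dlx1, Dlx2, Dlx5, Gad1, Sp9, Dcx, Stmn2 and Cd24a) were found in 1616 cells, 20.2% of the brain library. Those cells held 85 of the 111 Prokr2 molecules (76.6%), beside 1.13% of the Gpr37l1 and 1.33% of the Ntsr2 molecules. Cells with at least 3 astroglial markers, 75.4% of the library, held 12 Prokr2 molecules (10.8%) but 99.0% to 99.7% of the molecules of Gpr37l1, Ntsr2, Ednrb, Grm3 and Adra2a. By this measure Prokr2 in the brain library was a gene of neuroblast-marked cells. This look at neuroblast markers as a set was added after the Prokr2 counts had been seen.

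Shares of cells were compared after each cell was thinned to 400 molecules and shallower cells were left out, 718 in the brain and 19 in the tail. A molecule of any of the 7 receptors was found in 73.8% (72.8 to 74.8) of 7270 brain cells and in 15.1% (13.5 to 16.7) of 1945 tail cells, and unthinned in 76.7% and 33.4%. The thinned share was 98.7% in Agt-marked, 94.0% in Chst2-marked and 98.0% in Gdf10-marked cells. It was 6.90% in Dlx1-marked cells, of which 2.65% had Prokr2, so that share is not a measure of background alone. In microglia-like brain cells, taken as a measure of background, it was 7.32% (3 of 41). Their median depth of 631.5 molecules was the lowest of these groups. Gpr37l1 was found in 86.9%, 76.6% and 92.2% of the 3 astroglial groups and in 1.73% of Dlx1-marked cells. Grm3 was found in 20.7% (16.5 to 25.5) of Chst2-marked cells and in 6.99% (5.55 to 8.67) of Agt-marked cells, and in 0 of 869 thinned Dlx1-marked cells. That count allows a share of up to 0.345% (3 cells) at 400 molecules per cell, and without thinning Grm3 was found in 5 of 925 of these cells (0.541%).

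**Figure D3:**
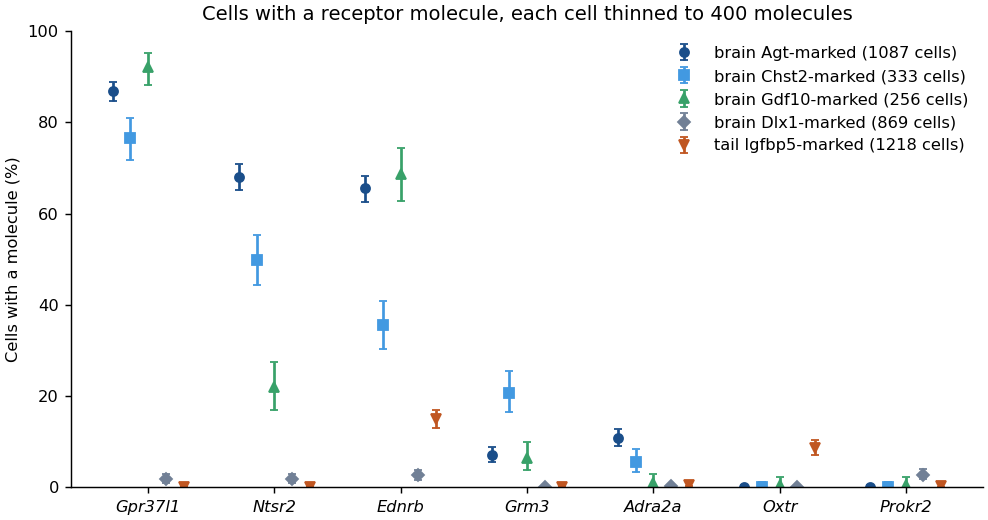
Share of cells with at least 1 molecule of each receptor after thinning to 400 molecules, in 4 brain groups and the tail Igfbp5-marked group, with exact Clopper-Pearson 95% intervals. Gpr37l1 is found in 76.6% to 92.2% of the astroglial groups, Ntsr2 drops to 21.9% in Gdf10-marked cells, and Ednrb (14.9%) and Oxtr (8.54%) are the receptors of the tail cells.

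Most astroglial cells carried several receptors at once. At least 2 of the 7 were found in 86.4% of thinned Agt-marked, 65.8% of Chst2-marked and 74.2% of Gdf10-marked cells, against 1.27% of Dlx1-marked and 1.64% of tail Igfbp5-marked cells. The mean number per cell was 2.38, 1.88 and 1.91 in the 3 astroglial groups, and no thinned cell had more than 5. Within a group, pairs occurred about as often as their single shares multiply to. In Agt-marked cells Gpr37l1 and Ntsr2 were found together in 59.2% of cells, where the product of the single shares is also 59.2%, and Ntsr2 and Ednrb in 45.3%, where it is 44.6%. The pair Ntsr2 and Adra2a was found in 6.26%, beside a product of 7.33%. In the Chst2-marked cells, 0 of 333 carried both Grm3 (69 cells) and Adra2a (18 cells), where the product of the shares is 1.12%. These are descriptions of cells of 1 library at 1 thinned depth.

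The main receptors of the tail library were Ednrb, which the brain library also had, and Oxtr. Both lay mainly in the cells marked by Igfbp5. That gene encodes an insulin-like growth factor binding protein and marked 1227 of 1964 tail cells. Ednrb had 674 molecules there (418 CPM, 387 to 451), and Oxtr 356 of its 360 (221 CPM, 198 to 245). The other receptors had 20 molecules or fewer, with 1 of Gpr37l1, 2 of Ntsr2, 3 of Grm3, 20 of Adra2a and 3 of Prokr2. Ednrb was found in 34.6% and Oxtr in 21.1% of these cells unthinned, and in 14.9% and 8.54% thinned. In fibroblast-like tail cells, gated on 3 of 6 collagen and stroma markers, the thinned shares were 1.13% and 0.565%, at a median depth of 1990 molecules against 1211 in the Igfbp5-marked cells. No cell had more than 5 Oxtr molecules. Ednrb and Oxtr were found together in 18 of 1218 thinned cells (1.48%), beside a product of 1.27%.

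Both receptors were higher in tail cells with more Igfbp5. Over cells with 0 to 1, 2 to 9, 10 to 29 and 30 to 118 Igfbp5 molecules, Oxtr had 2.60, 50.1, 240 and 308 CPM and Ednrb 44.3, 212, 452 and 550 CPM. Adra2a had 11.3, 9.11, 12.9 and 13.2 CPM over the same ranges, with overlapping intervals. The rise was thus seen for Oxtr and Ednrb and not for Adra2a. The 10 astroglial markers summed to 531, 804, 1937 and 2266 CPM over the same ranges, and median depth was 1446.5, 1078, 1071 and 1428 molecules. Their part in the result was not tested.

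**Figure D4:**
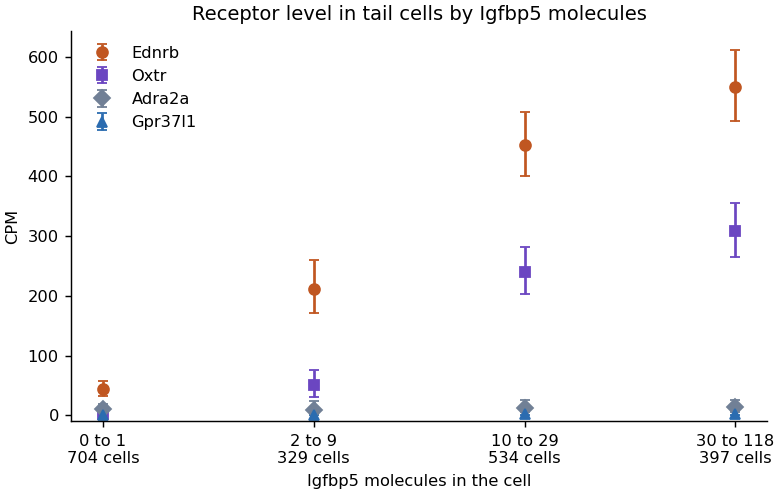
Level of 4 receptors in tail cells by the number of Igfbp5 molecules in the cell, in CPM on a linear axis with 95% Poisson intervals. Oxtr goes from 2.60 to 308 CPM and Ednrb from 44.3 to 550 CPM, while Adra2a and Gpr37l1 stay at or under 13.2 CPM.

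The remaining tail groups were small. The 11 Tmem212-marked tail cells, Tmem212 being a gene of ciliated ependymal cells, held 4 Ednrb molecules and 1 of Adra2a. The 60 Stmn2-marked tail cells held 2 molecules of Grm3, both in 1 cell, 1 of Oxtr and 0 of each other receptor, which allows up to 25.6 CPM each. Tail cells with no marker (633 cells) had 47 Ednrb, 12 Adra2a, 4 Ntsr2, 2 Oxtr and 1 Prokr2 molecule.

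Receptors also differed between the libraries in cells that shared a marker. Brain cells with at least 2 molecules of Tmem212 (53 cells) had 57 Gpr37l1 molecules (759 CPM, 574 to 983). By the interval of the ratio that is at least 4.97-fold more than the 11 tail cells. Against all 37 tail cells with 2 Tmem212 molecules, which held 1 Gpr37l1 molecule, the ratio was 50.6 (8.73 to 2035). Tmem212 did not match the cells. At least 3 astroglial markers were found in 49 of the 53 brain cells (92.5%) and in 12 of the 37 tail cells (32.4%). The 10 markers summed to 7558 CPM in these brain cells and 1543 CPM in these tail cells. Ednrb ran the other way against those 37 cells, with 36 tail molecules (539 CPM) and 17 brain molecules (226 CPM), but 26 of the 37 tail cells also had at least 2 Igfbp5 molecules. In Stmn2-marked cells Gpr37l1 had 112 molecules in 560 brain cells and 0 in 60 tail cells, by the interval at least 7.6-fold more in the brain. Those 112 molecules lay in 35 of the 560 cells, with up to 13 in 1 cell. At least 3 astroglial markers were found in 34 of the 560 brain cells (6.07%) and in 0 of the 60 tail cells. Whether astroglial RNA in the brain group set this ratio was not tested. In cells with 2 or more Igfbp5 molecules, Oxtr had 0 molecules in 419 brain cells and 357 in 1260 tail cells. By the interval of the ratio that is at least 27.7-fold more in the tail. Ednrb was at 828 CPM in these brain cells and at 424 CPM in these tail cells. This gate did not match the cells, since Igfbp5 itself was at 2841 CPM in the brain cells and at 18074 CPM in tail Igfbp5-marked cells. In tail cells with 2 to 9 Igfbp5 molecules Igfbp5 was at 3515 CPM and Oxtr at 50.1 CPM. Igfbp5 at 2 or more molecules thus did not mark cells with Oxtr in the brain.

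The same contrast was made in cells with at least 3 astroglial markers, a gate added after the values above were seen. The 248 such tail cells held 255 Ednrb (631 CPM), 63 Oxtr, 6 Adra2a, 2 Ntsr2, 2 Grm3, 1 Gpr37l1 and 0 Prokr2 molecules. These cells were 12.6% of the tail library and held 33.7% of its Ednrb, 18.2% of its Adra2a and 17.5% of its Oxtr molecules. Most molecules of these 3 genes in the tail thus lay outside cells with astroglial markers. The 6019 brain cells held 25301 Gpr37l1 molecules, a ratio of 2091 (375 to 82577). Ednrb was 3.43 times (3.03 to 3.90) as high in the brain, the smallest ratio of any receptor above 1. The gate did not match the cells fully, since the 10 markers summed to 51028 CPM in the brain cells and 3628 CPM in the tail cells.

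The genes whose levels followed each receptor most closely over 12 cell groups of both libraries were found by Pearson's r of log2(CPM + 20) among 3420 genes. The groups share 2 libraries and differ in size and depth, and no p is given. Gpr37l1 was most like Slc4a4 (r = 0.98), a bicarbonate cotransporter gene, Hepacam (0.98), a glial adhesion gene, and Itih3 (0.96). Among the genes most like Ntsr2 were Cldn10 (0.98), a claudin gene, and Rorb (0.96), a nuclear receptor gene. Ednrb was most like Sparcl1 (0.96), Smpd1 (0.95) and Dtna (0.95). Grm3 was most like Cs (0.98), Fbxo2 (0.98) and Slc13a5 (0.97), and Adra2a like Hacd2 (0.91), Ppt2 (0.89) and Paqr7 (0.86). Oxtr was most like Krt14 (0.92), a keratin gene of basal epidermis counted 947 times in tail cells and never in brain cells, then 2610001J05Rik (0.87) and Lsp1 (0.86). Oxtr was at 221 CPM in tail Igfbp5-marked cells and at 14.8 CPM or less in the other groups. Its r values thus rest mainly on that 1 group. Whether the same cells held Oxtr and Krt14 was not tested. Prokr2, with fewer than 200 molecules, was left out.

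Other genes of the signalling pathway were counted by the same rule, by which 4.66% of all genes were higher and 6.35% lower in the brain. Genes with the highest or lowest ratios are named among those with at least 200 molecules. Of 14 paralogs, 4 reached 50 molecules, and 1 of these 4 (25%, beside 4.66% of all genes), Grm5, lay beyond 4-fold in the brain, with 185 brain and 4 tail molecules. Gpr37, the closest relative of Gpr37l1, had a brain level of 86.5 CPM and a tail level of 17.0 CPM, a ratio of 5.08 (3.78 to 6.97). Ednra, the endothelin receptor type A gene, had 19.5 and 23.4 CPM, a ratio of 0.830 (0.612 to 1.14), an interval that holds 1 and ends below the 6.20 of Ednrb. Of 10 ligand and processing genes, 3 reached the minimum and none lay beyond 4-fold. Psap, which encodes prosaposin, was at 2646 CPM in brain cells against 1015 CPM in tail cells (ratio 2.61), and Ece1, which encodes an endothelin-converting enzyme, 72.1 and 52.9 CPM (ratio 1.36).

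Of 12 G protein α subunit genes, 11 reached the minimum and 0 lay beyond 4-fold either way, with a median log2 ratio of -0.43 beside -0.28 over all 11347 genes. Among those with at least 200 molecules, Gna13 (ratio 4.12) and Gnao1 (4.08) were highest toward the brain, followed by Gna12 (1.47), and Gnas (0.371), Gnai1 (0.590) and Gnai3 (0.620) were lowest. Gnao1, whose product couples to receptors such as those of Grm3 and Adra2a, had 247 CPM in Agt-marked, 1927 CPM in Chst2-marked and 1064 CPM in Gdf10-marked brain cells. Gnai1, Gnai2, Gnai3 and Gnaz, of the same inhibitory class, were instead highest of these 3 groups in the Gdf10-marked cells, at 12.5, 468, 115 and 21.8 CPM. There 3 molecules correspond to 9.36 CPM, so Gnai1 and Gnaz rest on few molecules and their order among the groups is not settled. These levels by group were chosen for mention after they had been seen. Of 24 effector and regulator genes, 19 reached the minimum and 3 lay beyond 4-fold in the brain (15.8%, beside 4.66% of all genes), namely Adcy8 (an adenylyl cyclase gene, 162 brain molecules and 1 tail molecule), Rgs20 (ratio 18.7) and Grk3 (11.3). Itpr2, the inositol trisphosphate receptor gene best known in astrocytes, had a ratio of 4.19 (3.16 to 5.65), and Grk6 (0.631), Rgs12 (0.755) and Adcy6 (0.793) were lowest among those with at least 200 molecules. Their median log2 ratio was 0.11.

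Of 30 genes of other receptors known in astroglia, 24 reached the minimum, 8 lay beyond 4-fold in the brain (33.3%, beside 4.66% of all genes) and 1 in the tail, Adgrv1, with a median log2 ratio of 1.84. Gabbr2, which encodes a GABA-B receptor subunit, was at 370 CPM in brain cells against 4.97 CPM in tail cells (ratio 74.5). Adora2b, an adenosine receptor gene, had a ratio of 60.8 and P2ry1, a purine receptor gene, one of 29.4. Lowest toward the brain among genes with at least 200 molecules were F2r (0.252), Cxcr4 (0.309) and Ackr3 (0.554). The list was drawn up as receptors of astroglia with these libraries already described, and its direction is no independent evidence. Grm5, Adcy8, Adgrv1 and Gnaz fell below the 200 molecules set for naming genes and are named for completeness of small counts.

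**Figure D5:**
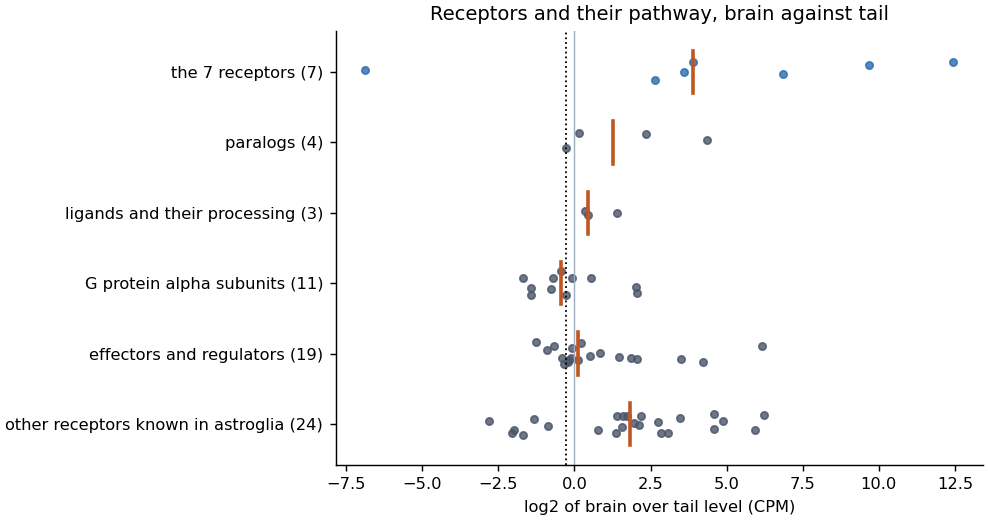
Log2 of the brain over tail level in CPM for the 7 receptors and for genes of 5 lists with at least 50 molecules, 1 point per gene, with the median of each list (orange bar). The vertical spread within a row is for display, the dotted line is the median over all genes (-0.28) and the grey line is 0. The 7 receptors, selected from this contrast, run from Oxtr at -6.87 to Gpr37l1 at 12.44.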

How the data were processed

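The deposited files hold molecule counts that the authors made per cell barcode and gene. Per the file headers these came from the BD Rhapsody WTA Analysis Pipeline 1.10.1 on GRCm38 with GENCODE vM19, and the submitters' processing notes also name UMI-tools 1.0.1, STAR 2.7.1a and featureCounts 1.6.4. The error-corrected molecule counts were used, at 1.25 (tail) and 1.24 (brain) reads per molecule. A barcode was kept as a cell if it had over 200 but under 4000 genes and less than 40% of its molecules from mitochondrial genes. Scrublet (scanpy 1.11.5, expected rate 0.05) called 5 tail (0.255%) and 76 brain cells (0.951%) doublets, which were kept.

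Molecules were summed over cells and divided by all molecules (CPM). CPM carry exact Poisson intervals, shares Clopper-Pearson intervals, ratios conditional exact binomial intervals, and a count of 0 was taken to allow 3 molecules. With 1 library per tissue no test was run. The receptors, marker groups and lists were chosen with earlier results of these data known. Named genes were the 7 receptors, the group markers, the 3 genes most like each receptor, Gpr37, Ednra and Psap, and from each list up to 3 genes each way with the largest ratios and at least 200 molecules. Alternatives used other marker limits, filters, thinning depths and scalings (TMM from edgeR 4.0.16). One gene among those most like Ntsr2 is not reported here. Identity between receptor proteins was not analysed here.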

Additional observations from a re-analysis of the deposited data

Results flagged for a closer look

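Barcodes that failed the filters were not used in the comparisons, and receptor molecules were counted in them as well. In the brain file 4123 such barcodes held 2818 receptor molecules (2715 CPM), with 1433 of Gpr37l1 (1381 CPM), 946 of Ntsr2 (912 CPM), 311 of Ednrb (300 CPM), 87 of Grm3, 38 of Adra2a, 3 of Prokr2 and 0 of Oxtr. Ntsr2 thus stood closer to Gpr37l1, and Ednrb further below it, than in the kept cells, where they had 1739, 3949 and 1667 CPM. In the tail file 505 such barcodes held 4 receptor molecules (25.7 CPM), 2 of Ednrb and 2 of Oxtr. The summed counts of 2818 and 4 were above the 3 molecules that a count of 0 allows, and those of Ednrb and Oxtr in the tail file were not. Of the barcodes in the files, 3428 in the brain and 356 in the tail had 40% or more mitochondrial molecules.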

How the results depend on the processing

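No paired analysis was possible because each tissue had 1 library and no result comes from a test, and for the same reason no replicate could be left out. Each alternative gave the summed ratios, shares and counts again, 72 values in all, of which 46 lay within the reported interval (counts: within 1.5 times), 23 moved and 3 changed direction, and of 214 values of single receptors 175 stayed, 37 moved and 2 changed direction. The brain over tail ratio of the summed receptors was 17.6 with under 20% mitochondrial molecules, 24.4 with TMM, 22.7 with median-ratio scaling and 17.1 as a mean over cells. The Chst2-marked to Agt-marked ratio was 0.705 with marker lists, 0.685 with TMM and 0.697 with median-ratio scaling. The Gdf10-marked to Agt-marked ratio was 1.01 with markers at 1 molecule and 1.19 at 3, and it changed direction with TMM (0.880), median-ratio scaling (0.945) and, in an alternative added after seeing the data, totals without mitochondrial molecules (0.9998), as Ednrb did with TMM (0.882) and median-ratio scaling (0.946). The Dlx1-marked to Agt-marked ratio was 0.0214 without doublets, 0.0346 with markers at 3 molecules, 0.0453 with markers whatever the others, 0.0243 with marker lists, 0.0208 with TMM, 0.0179 with median-ratio scaling and 0.0231 as a mean over cells. The share of brain cells with a receptor was 76.7% without thinning, 71.0% at 300 molecules, 77.3% at 600 and 68.0% with under 20% mitochondrial molecules, and that of tail cells was 33.4%, 12.8% and 21.2% for the first 3. The cause of these changes was not tested. Depth limits the sparse receptors, with Oxtr in the brain and Gpr37l1, Ntsr2, Grm3 and Prokr2 in the tail at 7 molecules or fewer.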

Other observations

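Brain cells with at least 2 molecules of Gfap (72 cells), an intermediate filament gene of astrocytes and of cells of the ventricular wall, had a different balance of receptors from the groups above. Gpr37l1 had 2879 CPM (2483 to 3320) and Ntsr2 2863 CPM (2469 to 3303), with intervals that overlap, whereas Gpr37l1 exceeded Ntsr2 in Agt-marked, Chst2-marked and Gdf10-marked cells. Ednrb had 1950 CPM (1626 to 2318), Grm3 122 CPM, Adra2a 91.4 CPM, and Oxtr and Prokr2 had 0 molecules, which allows up to 45.7 CPM. These cells overlap with the other groups.

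The 32 oligodendrocyte-like brain cells had 92 Gpr37l1 molecules (1403 CPM, 1131 to 1721), of which 27 lay in 1 cell, and at least 3 astroglial markers were found in 34.4% of them. Ednrb had 34 molecules and Ntsr2 24 in these cells.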
